A study of Syringa oblata with 2 samples.

Results

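Of the 73159 unigenes assembled from leaves of *Syringa oblata*, 114 belonged by description to protein families that make or carry cuticular wax, cutin or suberin. They were chosen by the text of their Swiss-Prot description alone. The 114 are called cuticle enzymes here, although some of them serve other lipid pathways. Of these, 45 unigenes were GDSL esterases/lipases (GDSL), 18 were 3-ketoacyl-CoA synthases (KCS) and 15 were long chain acyl-CoA synthetases (LACS). Another 14 had glycerol-3-phosphate acyltransferase (GPAT) in their description, which takes in 1-acyl-sn-glycerol-3-phosphate acyltransferases. Another 10 were non-specific lipid-transfer proteins (LTP), 6 were ECERIFERUM proteins (CER), 3 were fatty acyl-CoA reductases (FAR), 2 were O-acyltransferases WSD1 and 1 was HOTHEAD. The descriptions matched 139 unigenes, and the 25 of them with a best match in rice (*Oryza*) among the non-redundant (Nr) proteins of NCBI were left out.

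The plant cuticle is a layer of cutin polyester and waxes that epidermal cells lay down on the surface of leaves, and suberin is a related polyester of roots, bark and wounded tissue. Fatty acids made in plastids are joined to coenzyme A, lengthened in the endoplasmic reticulum to very long chains, and turned into alkanes, primary alcohols and wax esters. For cutin and suberin, oxidised acyl chains are joined to glycerol, exported through the plasma membrane by transporters of the ABCG class, and linked to each other outside the cell. Small secreted lipid-transfer proteins bind lipids at the cell surface.

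The leaves came from trees under natural light (Z0) and under a black net that took away 40% to 50% of the light (Z1, or 50% to 60% light intensity). There were 2 libraries per condition, called Z0-1, Z0-2, Z1-1 and Z1-2. The values were TPM, a unit scaled for transcript length and to the same total in each library, and the depth behind them is unknown. Each group had 5 trees, and which of them entered a given library is not stated in the sources used here. The p-values therefore speak only to the spread among these 4 libraries.

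Several features of the libraries followed the conditions or marked a single library. Carlavirus-matched unigenes (10, from a genus of plant viruses) made up 22.8% of Z0-1 and 13.9% of Z0-2, against 0.147% of Z1-1 and 0.0505% of Z1-2, so light, tree and virus level cannot be told apart in any comparison here. Rice-matched unigenes held 3.30% of Z1-2 and at most 0.296% of each other library. Summed over 13 unigenes, markers of epidermis and stomata gave 87.9, 84.9, 77.9 and 86.4 TPM in Z0-1, Z0-2, Z1-1 and Z1-2, and their median log2 fold change was 0.18. A single marker, EPIDERMAL PATTERNING FACTOR-like protein 9, was called lower in shade. Without it, as chosen after seeing the data, the other 12 summed to 69.3, 72.2, 77.6 and 85.8 TPM in the same order, higher in shade without overlap. The 26 leaf mesophyll markers gave between 19936 and 21584 TPM. Of these, 12 lay below natural light without overlap and 8 above, beside 18.2% and 41.5% of all unigenes. Called lower were 3 and called higher 1, beside 1.8% and 3.2% of all unigenes. None of the marker sums given here was rescaled for the carlavirus-matched share of Z0, whose removal would raise the Z0 sums relative to Z1. The sum of 12 vascular markers was 46.9 and 45.8 TPM in natural light, against 17.3 and 23.5 TPM in shade. In whole leaves, fewer cells of a type and less RNA per cell cannot be told apart.

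For most cuticle enzymes no difference between shade and natural light passed the test. An abundant lipid-transfer protein, a GDSL lipase-like unigene and a KCS11 rose under shade, and a short GDSL unigene fell. The lipid-transfer protein went from a mean of 1588 TPM to 5621 TPM, and by itself held over 80% of the summed level of the group in shade. Without it, the summed levels of the other 113 unigenes overlapped between the conditions.

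In the test, log2(TPM + 1) was compared with limma, which fits each unigene by a linear model and moderates its variance by that of the rest. A call needed a fold change over 2 and an adjusted p below 0.05 (Benjamini-Hochberg, over all 73159 unigenes). By this rule 3 of the 114 were higher and 1 was lower in Z1, while 3.2% of all unigenes were higher and 1.8% were lower. At an unadjusted p under 0.05 with the same fold change, 9 were higher and 17 lower, and the shares over all unigenes were 16.5% and 7.71%. Both libraries of Z1 lay above both of Z0 for 33 cuticle unigenes and below them for 31, and those shares over all unigenes were 41.5% and 18.2%. In the remaining 50 the conditions overlapped. The 4 calls were close to the threshold, and none of them held with a pseudocount of 0.1 or 5 in place of 1. Over all unigenes, 354 were higher and 199 lower with a pseudocount of 0.1, and 0 and 0 with 5. Losing these 4 is therefore not particular to the cuticle enzymes. A fit with a library left out has 1 library in a condition and cannot decide on a call. The median log2 fold change was -0.00 for the cuticle enzymes and 0.45 for all unigenes, and it was 0.28 for the 26082 unigenes with a Swiss-Prot name and no rice match.

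Level and length went along with direction inside the group. The 22 cuticle enzymes with a mean of at least 10 TPM had a median log2 fold change of 0.36, beside 0.35 for the 8295 Swiss-Prot-named unigenes of that level. For the 92 with a lower mean it was -0.12, beside 0.24 for the 17787 named unigenes below 10 TPM. Unigenes under 500 nt, which are likely to hold only a piece of a transcript, numbered 45 and had a median of -0.16, and the 69 longer ones had a median of 0.17. The 18 unigenes with a log2 fold change under -1 had a median length of 341 nt, and the 13 with one over 1 had a median length of 996 nt. None of the 45 short ones reached a mean of 10 TPM, so length and level cannot be told apart here. No split by length was made over all unigenes, and the part of fragment length in these differences was not tested.

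**Figure D1:**
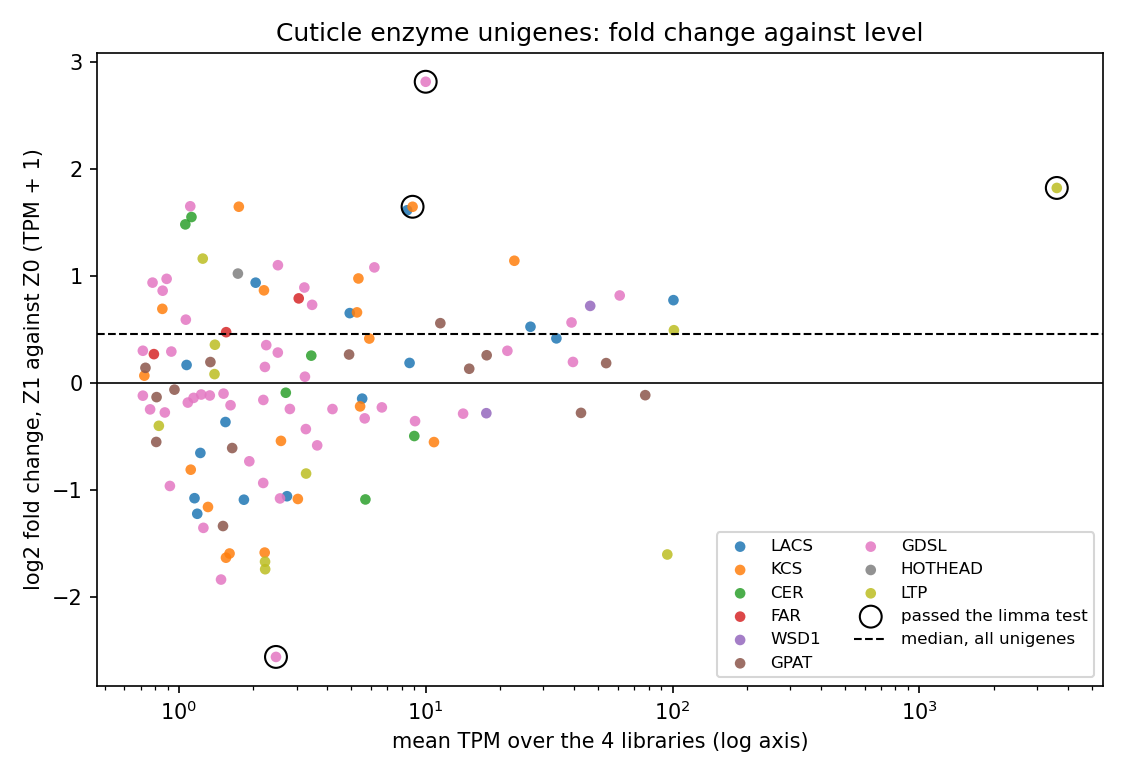
Log2 fold change of the 114 cuticle enzyme unigenes (vertical axis, Z1 against Z0 on the TPM + 1 scale) against their mean TPM over the 4 libraries (log axis), coloured by family. Ringed points are the 4 that passed the limma test. The dashed line is the median of all unigenes at 0.45, and the most abundant unigene is the lipid-transfer protein at the far right.

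Summed over families, lipid-transfer proteins had by far the highest level in every library and the widest gap between the conditions in TPM. The LTP unigenes summed to 1568 and 2102 TPM under natural light and 6457 and 5127 TPM under shade. All 114 unigenes summed to 2264 and 2997 TPM in natural light, against 7502 and 6043 TPM in shade, or 0.227%, 0.300%, 0.751% and 0.605% of the libraries. With the abundant lipid-transfer protein left out, the sums were 880, 1206, 1195 and 1108 TPM in Z0-1, Z0-2, Z1-1 and Z1-2, and the conditions overlapped. The LACS sums were 149 and 173 TPM under natural light and 286 and 198 TPM under shade, and the GDSL sums were 210 and 285 TPM in natural light, against 311 and 305.5 TPM in shade, without overlap in either family. The KCS sums did not overlap either, but Z0-2 and Z1-2 were nearly level at 79.9 and 80.0 TPM. GPAT, CER and WSD1 sums overlapped. None of these sums was rescaled for the carlavirus-matched unigenes, which took up 22.8% of Z0-1 and 13.9% of Z0-2. Rescaling without that share would raise the Z0 sums relative to those of Z1. For LACS, GDSL, KCS, GPAT, CER and WSD1, neither overlap nor its absence can therefore be relied on. How the family sums compare without that share was not tested.

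**Figure D2:**
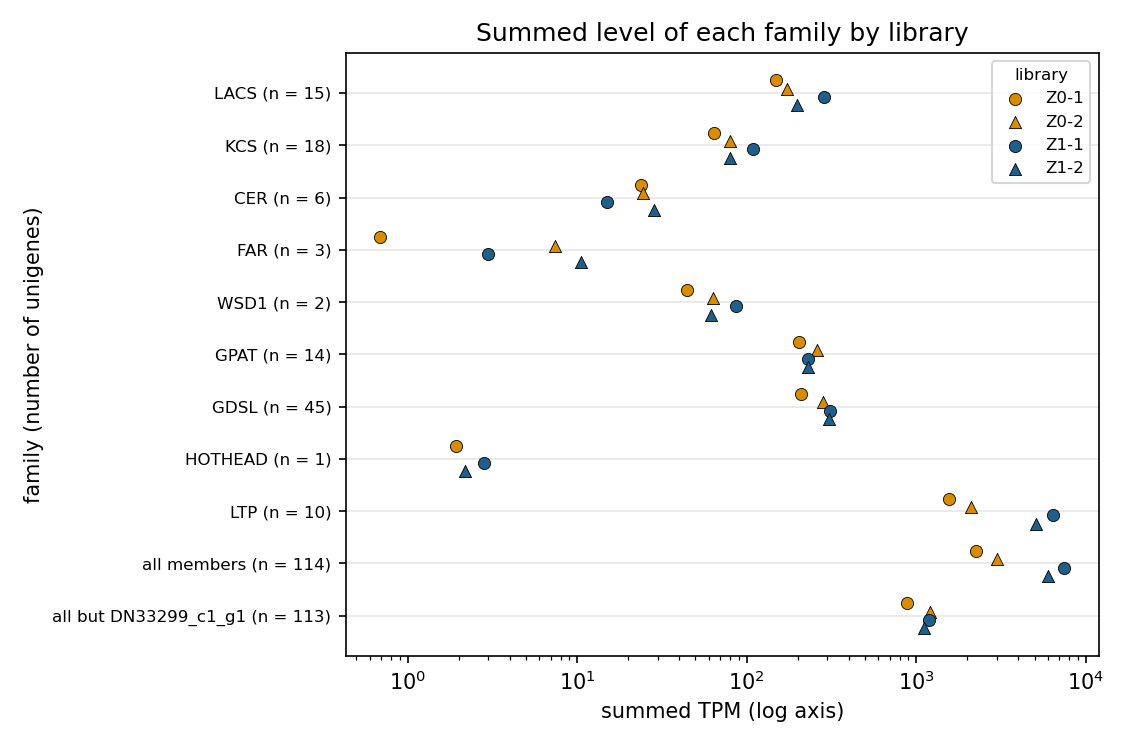
Summed TPM (log axis) of each family in the 4 libraries, natural light in orange and shade in blue. The bottom rows give all 114 unigenes and the 113 without the most abundant lipid-transfer protein, whose sums overlap between the conditions. HOTHEAD is listed at 0 in Z0-2 and has no point there.

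The first step of wax and cutin synthesis is the activation of fatty acids by long chain acyl-CoA synthetases. None of the 15 LACS unigenes passed limma's adjusted threshold, while 1 was higher and 4 were lower at an unadjusted p under 0.05 and 2-fold. Over all unigenes, the shares by that rule were 16.5% and 7.71%. The most abundant was a LACS4 of 2441 nt (DN36816_c1_g2), an enzyme of the endoplasmic reticulum in *Arabidopsis*. It had 73.4 and 71.3 TPM under natural light and 164.8 and 93.99 TPM under shade. Both shade libraries were higher, but Z1-1 stood well above Z1-2, and with a log2 fold change of 0.77 (SE 0.32) the adjusted p from limma was 0.1999. A second LACS4 unigene of the same Trinity component (DN36816_c1_g1), a group of contigs that may be variants of a single gene, had 1.48 and 2.36 TPM in natural light, against 0.12 and 0.67 TPM in shade.

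LACS5 (DN32764_c1_g1) had 4.66 and 2.74 TPM under natural light and 12.32 and 13.92 TPM under shade. The shade libraries were higher without overlap, and the log2 fold change of 1.62 (SE 0.30) had an adjusted p of 0.0558 in limma. It passed the threshold when rice-matched unigenes were left out (adjusted p = 0.0406) and under a filter at 5 TPM (adjusted p = 0.0137). The peroxisomal LACS6 (DN32090_c0_g1), which serves the breakdown of fatty acids, had 18.8 and 24.5 TPM in natural light, against 35.3 and 27.8 TPM in shade (log2 fold change 0.53, adjusted p = 0.249). LACS8 (DN33173_c1_g5) overlapped, with 23.1 and 35.0 TPM under natural light and 43.6 and 33.7 TPM under shade. LACS1 and LACS2, the synthetases tied to wax and cutin in *Arabidopsis*, were represented by 4 unigenes, of which the highest (LACS1, DN31333_c0_g2) had 6.08, 10.07, 10.17 and 8.10 TPM in Z0-1, Z0-2, Z1-1 and Z1-2. Its level thus did not part the conditions.

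The 3-ketoacyl-CoA synthases carry out the first reaction of each round of chain elongation and set the chain lengths that are made. A KCS11 rose under shade, and the other 17 did not pass the test. Of the 18 KCS unigenes, 7 lay above natural light without overlap, 8 lay below it and 3 overlapped, where the shares over all unigenes were 41.5% above and 18.2% below. The median log2 fold change of the family was -0.08, and 16 carried its FAE1_CUT1_RppA domain.

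The KCS11 unigene DN31451_c0_g4 (1895 nt) had 4.02 and 3.48 TPM in natural light, against 15.53 and 12.37 TPM in shade. All shade values were over 12 TPM and all natural light values under 5 TPM. The log2 fold change was 1.65 (SE 0.24), with an adjusted p of 0.0447 in limma. A second KCS11 unigene of nearly equal length in the same Trinity component (DN31451_c0_g3, 1894 nt) had 5.34 and 6.50 TPM under natural light and 4.67 and 5.19 TPM under shade, lower in shade without overlap but with a log2 fold change of only -0.22. The sum of this component, which also holds 3 unigenes named as other proteins, had a log2 fold change of 0.50 (adjusted p = 0.227). The call was also lost with median-ratio scaling (adjusted p = 0.0538), with TMM scaling (adjusted p = 0.0667) and without carlavirus-matched unigenes (log2 fold change 1.41, adjusted p = 0.0544).

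The most abundant KCS was a KCS4 (DN33601_c0_g1), with 10.3 and 16.5 TPM in natural light, against 44.4 and 20.3 TPM in shade. Shade was higher without overlap, although Z1-2 exceeded Z0-2 by less than the gap within either condition (log2 fold change 1.14, SE 0.46, adjusted p = 0.189). The other 3 KCS4 unigenes also lay above natural light in both shade libraries, with log2 fold changes from 0.69 to 0.98 and no call. KCS20 (DN35887_c0_g1), linked to suberin and wax in *Arabidopsis*, had 10.4 and 15.7 TPM under natural light and 10.3 and 6.84 TPM under shade, and its adjusted p was 0.330.

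Several KCS unigenes of low level were further apart, and those named here were picked after their values were seen. KCS6, also called CUT1, makes the very long chains of stem wax in *Arabidopsis*, and its unigene DN33180_c0_g2 had 0.42 and 0.23 TPM in natural light, against 2.67 and 3.68 TPM in shade (adjusted p = 0.0575). A shorter CUT1 unigene, DN29767_c0_g2, went the other way, with 1.42 and 1.98 TPM under natural light and 0.42 and 0.65 TPM under shade. FIDDLEHEAD (KCS10, DN34134_c0_g1), needed in *Arabidopsis* to keep young epidermal surfaces from fusing, had 4.33 and 4.61 TPM in natural light, against 1.26 and 1.94 TPM in shade (log2 fold change -1.09, SE 0.27, adjusted p = 0.0863). KCS7 (DN32963_c0_g2) had 2.77 and 3.04 TPM under natural light and 0.12 and 0.49 TPM under shade (adjusted p = 0.0625). CUT1 and KCS7 passed the threshold without the rice-matched unigenes (DN33180_c0_g2 higher, DN32963_c0_g2 lower), as did another KCS11 unigene, of 294 nt (DN10173_c0_g2, lower). This KCS11 had 3.31 and 2.42 TPM in natural light, against 0.15 and 0.33 TPM in shade (log2 fold change -1.63, SE 0.32, adjusted p = 0.0611 with all unigenes), opposite in direction to the KCS11 that rose.

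**Figure D3:**
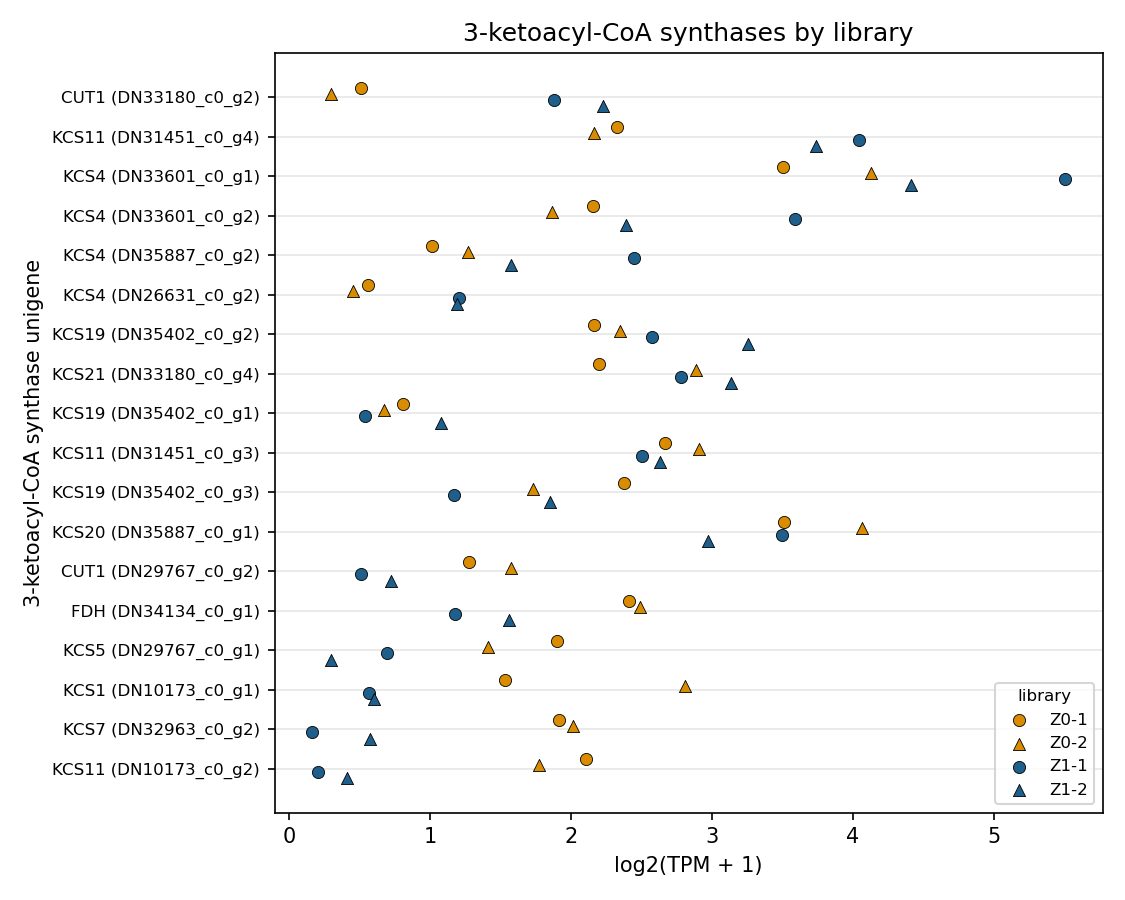
Level of the 18 KCS unigenes in each library as log2(TPM + 1), sorted from the highest to the lowest log2 fold change, natural light in orange and shade in blue. The upper rows have shade to the right (all 4 KCS4 unigenes among them) and the lower rows have it to the left, and KCS11 DN31451_c0_g4 is the single called unigene.

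Alkanes, the main leaf wax of many plants, are made from very long acyl chains by CER1 together with CER3. None of the 6 CER unigenes passed the adjusted threshold. At an unadjusted p under 0.05 with a 2-fold change, 1 was higher and 0 were lower, beside 16.5% and 7.71% of all unigenes. The longest CER1 unigene (DN37135_c0_g2, 2112 nt) had 9.13 and 6.73 TPM in natural light, against 1.83 and 5.11 TPM in shade. Shade was lower without overlap, with a log2 fold change of -1.09 (SE 0.45) and an adjusted p of 0.195. Short CER1 unigenes behaved differently: DN32271_c1_g9 and DN32271_c1_g8 were listed at 0 in both Z0 libraries and had 0.85 and 3.65 TPM, and 0.73 and 3.52 TPM, in Z1-1 and Z1-2. The CER3 unigenes were DN33146_c0_g3, with 9.31 and 12.09 TPM under natural light and 6.39 and 8.18 TPM under shade, and DN28352_c0_g1, with 2.97 and 3.12 TPM in natural light, against 4.08 and 3.59 TPM in shade. They lay on opposite sides of natural light, and neither passed (adjusted p = 0.281 and 0.486).

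Fatty acyl-CoA reductases make primary alcohols, and WSD1 joins alcohols with acyl chains to wax esters. The 3 FAR unigenes were short (258 to 637 nt) and low, and all overlapped between the conditions. Of the WSD1 unigenes, DN29109_c1_g3 had 29.1 and 39.7 TPM under natural light and 72.7 and 44.2 TPM under shade (log2 fold change 0.72, SE 0.33, adjusted p = 0.233). The other, DN29926_c1_g4, had 15.3, 23.9, 13.9 and 17.4 TPM in Z0-1, Z0-2, Z1-1 and Z1-2 and overlapped. WSD1 was thus well expressed in both conditions with no change that passed the test.

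Acyltransferases of glycerol-3-phosphate start the monomers of cutin and suberin as well as membrane lipids, and the descriptions took in both kinds. Of the 14 unigenes, 7 were 1-acyl-sn-glycerol-3-phosphate acyltransferases, which add the next acyl chain of membrane and storage lipids. None of the 14 passed the test, and 10 overlapped. The most abundant was the plastid enzyme of membrane lipid synthesis (DN35483_c0_g1), with 72.5 and 89.1 TPM in natural light, against 69.9 and 78.7 TPM in shade. The 1-acyl-sn-glycerol-3-phosphate acyltransferases DN36539_c0_g1 (LPAT2) and DN29865_c0_g1 (LPAT4) had log2 fold changes of 0.19 and -0.28. GPAT5, a suberin enzyme in *Arabidopsis* roots and seed coats, was seen in unigenes of 250 and 392 nt, and DN1277_c0_g1 had 3 and 2.10 TPM in Z0 and 0.94 TPM and a listed 0 in Z1 (adjusted p = 0.139). The GPAT8 unigenes (cutin in *Arabidopsis*) were also short, at 225 and 275 nt, and overlapped.

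The GDSL esterases/lipases form a large family, some of whose members link cutin monomers outside the cell, and HOTHEAD is an oxidoreductase needed for dicarboxylic cutin monomers in *Arabidopsis*. A unigene named At4g10955 rose and one named At2g19050 fell. Of the 45 GDSL unigenes, 13 lay above natural light without overlap, 9 lay below it and 23 overlapped. The shares over all unigenes were 41.5% above and 18.2% below. The HOTHEAD unigene (DN39301_c0_g1, 207 nt) had 1.94 TPM and a listed 0 in Z0 and 2.82 and 2.18 TPM in Z1 (adjusted p = 0.319).

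DN28061_c0_g1, named GDSL esterase/lipase At4g10955, had 1.66 and 1.57 TPM under natural light and 24.40 and 12.38 TPM under shade. Each shade library was well above natural light, and Z1-1 was about 2 times Z1-2. The log2 fold change was 2.82 (SE 0.38), with an adjusted p of 0.0401 in limma. Its domain is Lipase_3, shared by 2 of the 45 unigenes, whereas 35 carried Lipase_GDSL and 7 Lipase_GDSL_2, so the name came from the protein it matched and not from a GDSL domain. The call held with both scalings and without carlavirus-matched unigenes.

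DN8827_c0_g1 (At2g19050) had 4.24 and 5.66 TPM in Z0 and was listed at 0 in both Z1 libraries. With 269 nt it was a short piece of a transcript, and a listed 0 can be a failed estimate, so no fold is given. On the log2(TPM + 1) scale the fitted difference was -2.56 (SE 0.30, adjusted p = 0.0368 in limma), and it depends on the pseudocount. A filter at 5 TPM ended the call (adjusted p = 0.0652).

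Besides At4g10955, 5 GDSL unigenes had a mean of at least 10 TPM, and none of them passed. The CPRD49 unigenes DN36522_c0_g5 and DN33835_c1_g1 overlapped, with log2 fold changes of 0.30 and -0.29. At1g71691 (DN31724_c0_g1) had 28.7 and 63.5 TPM in natural light, against 75.4 and 76.9 TPM in shade (log2 fold change 0.82, SE 0.42, adjusted p = 0.267). For At5g62930 (DN32159_c0_g1) the values were 26.7 and 36.2 TPM under natural light and 48.1 and 45.0 TPM under shade. At1g54790 (DN30680_c1_g7) had 35.5 and 38.0 TPM in natural light, against 40.3 and 44.3 TPM in shade, and its log2 fold change of 0.20 turned to -0.11 with median-ratio and -0.25 with TMM scaling. The last 3 parted the conditions without overlap, by less than 2-fold in the log2(TPM + 1) fit. Among the low ones, chosen after their values were seen, At1g29670 (DN27384_c1_g5) had 2.67 and 3.09 TPM under natural light and 0.15 and 0.02 TPM under shade (adjusted p = 0.0524), and it passed as lower with both scalings.

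**Figure D4:**
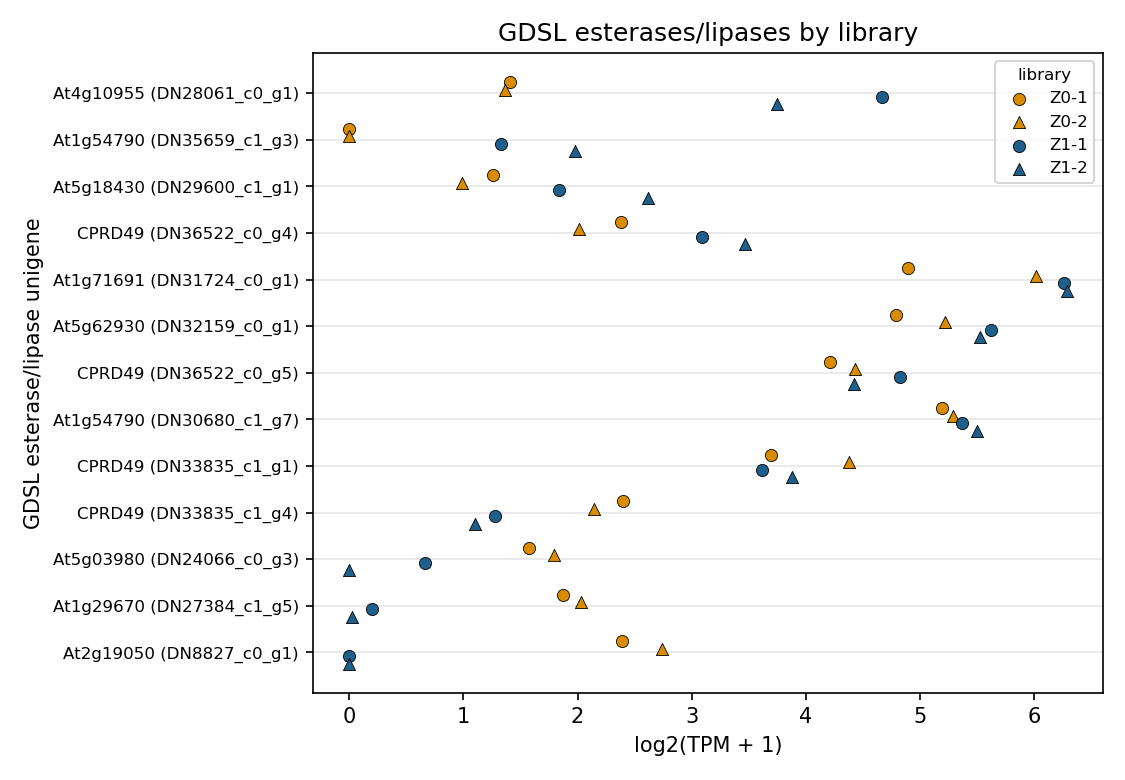
Level of 13 GDSL unigenes in each library as log2(TPM + 1), sorted by log2 fold change, natural light in orange and shade in blue. Drawn are those with a mean of at least 10 TPM or an unadjusted p under 0.05 with a 2-fold change, so the picture is a choice by result and not the whole family of 45. At4g10955 at the top rose, and At2g19050 at the bottom is at 0 in shade.

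Non-specific lipid-transfer proteins bind lipids outside the cell and are among the most abundant secreted proteins of the epidermis. A single unigene set the level of the family. DN33299_c1_g1 (654 nt, named nsLTP 2, with an LTP_2 domain and a best Nr match in the olive genus *Olea*, of the same plant family) had 1384 and 1791 TPM in natural light, against 6307 and 4935 TPM in shade. Both shade libraries were more than 2 times either natural light library. The ratio of the means was 3.54, and the log2 fold change was 1.82 (SE 0.27) with an adjusted p of 0.0450 in limma. By TPM its ranks among all unigenes were 54 and 42 in the Z0 libraries and 11 and 16 in the Z1 libraries. Its share of the summed level of the 114 unigenes was 61.1% and 59.8% in natural light and 84.1% and 81.7% in shade.

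The size of this difference depends on what else the libraries held. Without the carlavirus-matched unigenes the log2 fold change was 1.53 (adjusted p = 0.0497), with median-ratio scaling it was 1.51 (adjusted p = 0.0538), and with TMM scaling it was 1.36 (adjusted p = 0.0558). All 4 libraries kept their order between the conditions, but the adjusted p stayed near the threshold. With a library left out, the log2 fold change ran from 1.64 to 2.01. The sums of all 13 epidermal markers overlapped, at 87.9 and 84.9 TPM in natural light and 77.9 and 86.4 TPM in shade. Only without EPIDERMAL PATTERNING FACTOR-like protein 9, dropped after seeing the data, were they higher in shade (77.6 and 85.8 against 69.3 and 72.2 TPM). Of those left, a GLABRA 3 unigene (DN37757_c0_g1) had 18.5 and 23.5 TPM in natural light and 31.3 and 27.1 TPM in shade. A MERISTEM L1 unigene (DN26064_c0_g1) was lower in shade, at 20.6 and 23.9 against 24.2 and 26.2 TPM. None of these marker sums was rescaled for the carlavirus-matched share of Z0, whose removal would raise the Z0 sums relative to those in shade. The part of epidermal cells in the result was not tested.

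The other abundant lipid-transfer proteins had other patterns. DN33293_c3_g1 (named LE16 after a tomato protein) had 121.7 and 163.9 TPM under natural light and 34.2 and 61.1 TPM under shade. It was lower in shade without overlap, with a log2 fold change of -1.60 (SE 0.36) and an adjusted p of 0.0730, and it passed with TMM scaling (-2.06, adjusted p = 0.0443) and under a filter at 5 TPM (adjusted p = 0.0177). DN33293_c3_g5 of the same component had 2.10 and 5.93 TPM in natural light, against 0.44 and 0.47 TPM in shade. DN25285_c0_g2 had 51.2 and 126.1 TPM under natural light and 105.3 and 122.7 TPM under shade, so its conditions overlapped. Of the 10 LTP unigenes, 2 lay above natural light without overlap, 4 lay below it and 4 overlapped, beside 41.5% above and 18.2% below over all unigenes.

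One unigene of the family belonged to another class of protein. DN12509_c0_g1 (2454 nt) was named for mouse sterol carrier protein 2, which shares the name of the plant proteins, carried a thiolase domain and had its best Nr match in the green alga *Monoraphidium*. Its level was 0.03 and 0.13 TPM in Z0, 4.84 TPM in Z1-1 and 0 in Z1-2, so it was seen in essentially 1 library. It was counted with the family because the rule goes by description.

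**Figure D5:**
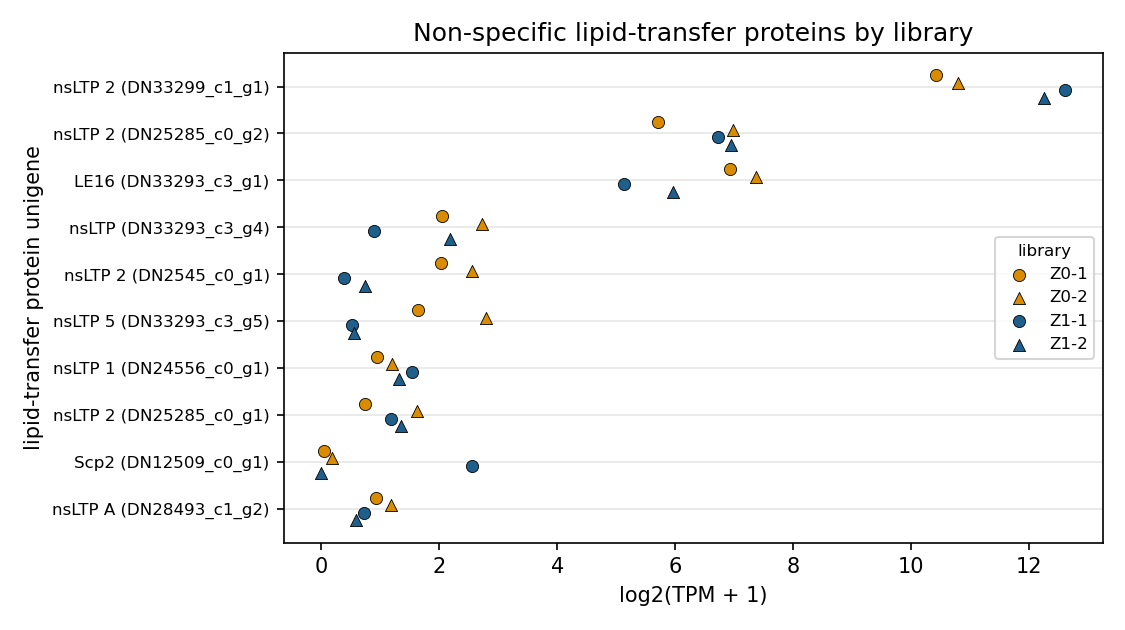
Level of the 10 lipid-transfer protein unigenes in each library as log2(TPM + 1), sorted by mean TPM, natural light in orange and shade in blue. DN33299_c1_g1 at the top lies to the right in shade, LE16 (DN33293_c3_g1) lies to the left, and Scp2 (DN12509_c0_g1) is the unigene with the algal match.

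Because the assembly was made without a genome, a gene may be spread over several unigenes. The 114 unigenes fell into 86 Trinity components, of which 24 held at least 2 of them (52 unigenes). In 4 of these components (DN30765_c0, DN31451_c0, DN35887_c0 and DN36816_c1), unigenes lay on opposite sides of natural light without overlap, among them the KCS11 and LACS4 pairs described above. Close copies of a gene and reads shared between them could not be told apart from TPM. When TPM were summed per component, 0 components that held a cuticle enzyme passed limma's adjusted threshold. Of all 30459 components only 4 were higher and 1 lower, so the 0 is not particular to cuticle enzymes. At an unadjusted p under 0.05 with a 2-fold change, 6 components with a cuticle enzyme were higher and 11 lower. The share over all components by that rule was not counted.

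The remaining genes of the pathway were taken from 6 lists by their descriptions, 97 unigenes in all. None passed limma's adjusted threshold in either direction, while 4 were higher and 5 lower at an unadjusted p under 0.05 with a 2-fold change (16.5% and 7.71% of all unigenes). Without overlap, 33 lay above and 27 below natural light (41.5% and 18.2% of all unigenes). Their median log2 fold change was 0.04. The lists therefore showed no call, and the most abundant member of each is given next.

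ABCG11, a half-transporter that exports wax and cutin precursors in *Arabidopsis*, was the most abundant transporter (DN34564_c0_g1), with 205 and 265 TPM in natural light, against 111 and 136 TPM in shade. Shade was lower without overlap, with a log2 fold change of -0.92 (SE 0.24, adjusted p = 0.0935), and it passed with TMM scaling (-1.38, adjusted p = 0.0407). ABCG13 (DN34564_c0_g5), listed in the same component, had 68.1 and 81.2 TPM under natural light and 60.2 and 40.5 TPM under shade. Of 14 transporter unigenes, 7 lay below natural light without overlap and 1 above it, beside 18.2% and 41.5% of all unigenes. No transporter was called.

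The partners of KCS in the elongase complex numbered 7, of which 4 lay above natural light without overlap and 0 below, beside 41.5% and 18.2% of all unigenes. An enoyl-CoA reductase (DN33737_c0_g4), which closes each round of elongation, had 61.5 and 41.3 TPM in natural light, against 78.3 and 96.1 TPM in shade (log2 fold change 0.77, SE 0.28, adjusted p = 0.159). Another enoyl-CoA reductase (ECR, DN34579_c0_g1) overlapped, with 16.6, 23.9, 21.1 and 21.6 TPM in Z0-1, Z0-2, Z1-1 and Z1-2.

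Hydroxylases make the oxidised chains of cutin, and the 7 found were low apart from a pair named CYP94A1, of which DN29157_c1_g1 had 10.4 and 14.7 TPM under natural light and 18.5 and 18.6 TPM under shade (log2 fold change 0.55, adjusted p = 0.234). The midchain alkane hydroxylase MAH1 (DN31620_c0_g4), chosen after its values were seen, had 3.37 and 3.06 TPM in natural light, against 7.23 and 5.53 TPM in shade (adjusted p = 0.127). BODYGUARD 3 (DN30480_c1_g1), of a family of epidermal cutin proteins, overlapped at 96.7, 100.3, 65.5 and 115.0 TPM in Z0-1, Z0-2, Z1-1 and Z1-2. None of these parted from natural light beyond the test.

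Among the 16 unigenes of regulators, the homeodomain factor ANTHOCYANINLESS 2, which in *Arabidopsis* acts in the epidermis, was the most abundant by mean (DN37686_c1_g5), with 13.8 and 13.9 TPM under natural light and 22.8 and 18.9 TPM under shade (log2 fold change 0.55, adjusted p = 0.181). WIN1 and SHINE 2, activators of wax and cutin genes in *Arabidopsis*, were seen in short unigenes, and both are named after their values were seen. WIN1 (DN30935_c0_g7, 256 nt) had 3.49 and 3.26 TPM in natural light, against 0.44 and 0.24 TPM in shade (log2 fold change -1.71, SE 0.29, adjusted p = 0.0503), and it passed with both scalings. SHINE 2 (DN34128_c1_g3, 395 nt) had 1.63 and 2.84 TPM in Z0 and was listed at 0 in Z1 (adjusted p = 0.0836). Both were lower in shade without overlap.

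In the plastid, where the acyl chains are made, 49 unigenes of acetyl-CoA carboxylase, acyl carrier protein, the fatty acid synthase steps and thioesterases were tested, and their median log2 fold change was -0.02. The most abundant by mean was a 3-oxoacyl-[acyl-carrier-protein] reductase (DN35586_c2_g1), with 41.2 and 45.7 TPM under natural light and 56.2 and 63.9 TPM under shade (log2 fold change 0.46, adjusted p = 0.218). Another reductase of that name (DN26744_c0_g1, chosen after its values were seen) had 6.50 and 12.46 TPM in natural light, against 1.08 and 1.35 TPM in shade, with a log2 fold change of -2.18 (SE 0.37) and an adjusted p of 0.0508. Summed, the plastid list gave 532 and 585 TPM under natural light and 523 and 602 TPM under shade, and the conditions overlapped. These sums were not rescaled for the carlavirus-matched share of Z0, which lowers the Z0 values. Whether they would overlap without that share was not tested.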

How the data were processed

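RNA of *S. oblata* leaves was compared in 4 libraries, 2 of Z0 and 2 of Z1, matched to the conditions by column name, since the sample labels give 1 sample per condition (and genomic DNA as molecule, while their protocol describes RNA). The authors deposited TPM, estimated by Salmon on an assembly made with Trinity 2.4.0, with the length and annotation of each unigene, and cutadapt and FastQC stand in the submitters' processing notes without versions. TPM hold no reads, so depth and its precision are unknown and no count test was run, although the study used a count model.

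All unigenes reached 1 TPM in 1 library and were tested. limma 3.58.1 in R 4.3.3 (with version 1.17.8 of its data.table package) was fitted to log2(TPM + 1) with a trended prior and no covariate, and Benjamini-Hochberg adjustment ran over all unigenes. On this scale fold changes of low unigenes are understated. An exact permutation of 2 against 2 reaches at best p = 0.333 and was not used. The fit was checked on simulated data. Tables and plots used Python 3.11.15, pandas 2.3.3 and matplotlib 3.10.9.

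Named were all called unigenes, the 3 of highest mean TPM per family, the 8 highest and up to 8 lowest fold changes (3 were found) without overlap and with 10 TPM or more in the condition where they were higher, and the most abundant member of each further list; exceptions are said to be chosen after their values were seen, and this holds too for the short CER1, GPAT and LTP unigenes, LACS1, the CPRD49 unigenes, ABCG13, ECR and the variants within components. The members and lists were chosen with earlier results of these data known. The settings tried besides were a pseudocount of 0.1 or of 5, a filter at 5 TPM or none, median-ratio and unweighted TMM scaling (trimming 30% of M and 5% of A), the replicate number as a block, leaving out rice-matched or carlavirus-matched unigenes with TPM rescaled, TPM summed per component, an unadjusted p, and leaving out each library, where the lone library left in a condition was taken to vary as those of the other.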

Additional observations from a re-analysis of the deposited data

How the results depend on the processing

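With 2 libraries per condition the counts of calls were fragile, over all unigenes as well as here. Over all unigenes, 2344 higher and 1317 lower became 354 and 199 with a pseudocount of 0.1, and 0 and 0 with 5. Of all 30459 components, 4 were higher and 1 lower. The 3 cuticle enzymes higher in Z1 became 0 with a pseudocount of 0.1 or 5 and with TPM summed per component, 1 with median-ratio or TMM scaling, 2 without carlavirus-matched unigenes, and 5 with a filter at 5 TPM or without rice-matched unigenes. The 1 lower became 0 with a pseudocount of 0.1 or 5 and per component, 2 with median-ratio scaling or without carlavirus-matched unigenes, 4 with TMM scaling and 5 without rice-matched unigenes. At an unadjusted p, 9 were higher and 17 lower. Counts with a library left out are not given, since a single library then stands for a condition. The median log2 fold change of -0.00 became 0.20 with the 5 TPM filter, -0.19 with median-ratio scaling, -0.30 with TMM scaling, -0.18 without carlavirus-matched unigenes and 0.17 per component, and ran from -0.13 to 0.15 with libraries left out; that of all unigenes was 0.45, 0.23 with median-ratio and 0.12 with TMM scaling. The cause of these shifts was not tested.

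Among the other cuticle genes, those higher numbered 4 at an unadjusted p. Those lower numbered 5 at an unadjusted p, 1 with the 5 TPM filter, 2 with median-ratio scaling, 4 with TMM scaling, 4 without rice-matched unigenes and 2 without carlavirus-matched unigenes. Over 73159 unigenes, the deviations of same-numbered libraries had a correlation of -0.087. With a single difference per condition, this cannot decide whether the libraries were paired. With the replicate number as a block, 2 cuticle enzymes were higher and 1 lower, KCS11 lost its call (adjusted p = 0.0536 in limma) and 1 other cuticle gene was lower.

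Most of the 33 named genes had no call to lose. Calls lost numbered 4 with a pseudocount of 0.1, with one of 5 and per component, and 2 with either scaling. One call was lost without carlavirus-matched unigenes, with the block and with the 5 TPM filter. Calls gained numbered 2 with TMM scaling, 2 with the 5 TPM filter and 1 without rice-matched unigenes. Across named genes and settings 19 values changed sign, none of them in a called gene. With TMM scaling the log2 fold change became -0.029 for LACS8 DN33173_c1_g5, -0.10 for CER3 DN28352_c0_g1, -0.27 for DN36539_c0_g1 and -0.25 for DN30680_c1_g7. With median-ratio scaling it became -0.13 for DN36539_c0_g1 and -0.11 for DN30680_c1_g7, and without carlavirus-matched unigenes -0.10 and -0.090. Per component it became -0.083 for DN33173_c1_g5, 0.59 for DN37135_c0_g2, 0.54 for DN29926_c1_g4 and -0.014 for DN30680_c1_g7. With libraries left out it ran from -0.43 to 2.02 for DN29335_c0_g3, from -0.11 to 0.65 for DN29335_c0_g2, from -0.59 to 0.024 for DN29926_c1_g4, from -0.26 to 0.033 for DN35483_c0_g1, from -0.15 to 1.14 for DN25285_c0_g2 and from -0.58 to 0.22 for DN30480_c1_g1. Unknown depth and unigenes near 1 TPM limit what can be read from the low members.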

Other observations

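The 25 rice-matched unigenes with the same descriptions, left out above, had a summed level of 162 TPM in Z1-2, beside 7.19, 5.71 and 3.09 TPM in Z0-1, Z0-2 and Z1-1. Of these, 24 were highest in Z1-2 and 21 were under 1 TPM in every other library.

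Among the 13 markers of epidermis and stomata, EPIDERMAL PATTERNING FACTOR-like protein 9 (DN35830_c0_g3), the peptide also called STOMAGEN that raises the number of stomata in *Arabidopsis*, had 18.7 and 12.7 TPM in natural light, against 0.34 and 0.59 TPM in shade. It was chosen after its values were seen and was the 1 marker of this list that limma called (log2 fold change -3.49, SE 0.30, adjusted p = 0.0334). Of the whole list, 5 lay above natural light without overlap and 2 below, beside 41.5% and 18.2% of all unigenes. The most apart of those above were the stomatal factor FAMA (DN21136_c0_g1, log2 fold change 1.43, adjusted p = 0.0737) and EPIDERMAL PATTERNING FACTOR-like protein 2 (DN24064_c0_g1, 1.31, adjusted p = 0.125). Neither was called, and both were low, at 2.92 and 4.05 TPM and at 2.54 and 1.65 TPM in shade. Of the 12 vascular markers, 7 lay below natural light without overlap and 1 above, beside 18.2% and 41.5% of all unigenes. The cellulose synthase CESA4 unigene DN20407_c0_g1, an enzyme of secondary walls, had 5.63 and 5.95 TPM under natural light and 1.09 and 1.30 TPM under shade (log2 fold change -1.63, SE 0.24, adjusted p = 0.0451).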
